A study of Mus musculus with 2 samples.

Results

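Myoglobin, the related globins and a small set of red cell genes were described in mouse gastrocnemius, a fast calf muscle. The 9 genes were chosen by symbol: Mb, Cygb, Ngb, Hba-a1, Hba-a2, Hbb-bs, Hbb-bt, Alas2 and Slc4a1. Each symbol was matched to its gene identifier, and all 9 were found among the 55536 annotated genes. The series held 1 group, adult males aged 8 to 10 months of a cross of 5xFAD with CAST mice, profiled by total RNA-seq in 2 libraries labelled as biological replicates. 5xFAD mice are a transgenic model of familial Alzheimer's disease in which human APP with disease mutations is expressed from a neuronal Thy1 promoter, and CAST is an inbred strain of castaneus origin. No library without the transgene, of another tissue or of another age was analysed here, so values are levels in this muscle and differences between its libraries. The labels give no genotype beyond the strain name. Both libraries name a single donor entry and separate biosamples, and nothing in the labels says that they came from separate animals, so the spread between them may be technical.

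Globins are small haem proteins that bind oxygen. Myoglobin fills the cytoplasm of oxidative muscle fibres and heart muscle, where it stores oxygen and eases its diffusion to mitochondria. Haemoglobin carries oxygen in red cells as a tetramer of alpha and beta chains. Mature mouse red cells have no nucleus but young red cells still hold globin mRNA, which blood left in a tissue can bring into a bulk sample. Cytoglobin is found in fibroblast-like cells and neuroglobin in neurons.

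The libraries held 35163970 and 35412240 expected counts over genes, estimates that share out reads matching more than 1 gene, and ERCC and phiX spike-in RNA took 0.527% and 0.474% of all counts. Levels are in TPM, the deposited relative abundance, which scales reads to transcript length and to the total. A separate deposited table in kallisto's layout, summed per gene, gave a further estimate of each level. The signal recognition particle RNA Rn7s alone took 22.8% of TPM in replicate 1 and 26.3% in replicate 2, and the median gene stood at -0.13 on the log2 scale of TPM, replicate 2 over replicate 1. Differences between libraries are therefore given as log2 ratios of counts after TMM scaling, which centres the genes, with exact binomial 95% intervals that cover counting error only. Skeletal fibre markers matched the labelled tissue: Acta1, skeletal alpha-actin, stood at 18634 and 18372 TPM, and Ckm, muscle creatine kinase, at 17390 and 16315 TPM.

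The adult globin genes come as pairs of near copies, and how many of their bases differ sets what short reads can tell apart. In the mm10 annotation the coding sequences of Hba-a1 and Hba-a2, both of 426 bases, differed at 1 position, C381T, counted from 1 at the A of the start codon, with the base of Hba-a1 first. The coding sequences of Hbb-bs and Hbb-bt, both of 441 bases, also differed at 1 position, C417T, with the base of Hbb-bs first. Each change lies at the third base of its codon and leaves the amino acid as it was. The 60 coding bases around each difference are printed 5′ to 3′ with the differing base in capitals.
Hba-a1 (chr11:32284313-32284372, forward strand): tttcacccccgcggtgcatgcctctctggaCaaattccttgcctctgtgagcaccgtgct
Hba-a2 (chr11:32297130-32297189, forward strand): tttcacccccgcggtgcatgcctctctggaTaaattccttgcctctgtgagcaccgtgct
Hbb-bs (chr7:103826668-103826727, reverse strand): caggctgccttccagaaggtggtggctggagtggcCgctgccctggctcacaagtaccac
Hbb-bt (chr7:103812659-103812718, reverse strand): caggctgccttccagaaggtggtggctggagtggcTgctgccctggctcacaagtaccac
Outside the coding part the copies differ more. Of the 600 windows of 100 bases in the main transcript of Hba-a1, 339 (56.5%) also occur in that of Hba-a2, and of the 529 such windows of Hbb-bs, 331 (62.6%) also occur in Hbb-bt. The mm10 assembly is that of C57BL/6J, so a CAST allele that differs from it would be counted against the C57BL/6J sequence.

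Mb was by far the most abundant member. Mb (ENSMUSG00000018893.15, chr15:77015487-77050670, reverse strand) had 34550 counts in replicate 1 and 31606 in replicate 2, which gave 1579 and 1340 TPM, or 1459 ± 169 TPM (SD, n = 2, as throughout). It ranked 22 of 22015 nuclear protein-coding genes by mean TPM. The next gene above it was Tpm2, a tropomyosin, at 1993 TPM, and the next below was Tpt1 at 1437 TPM. Tpt1 lies within the spread of Mb.

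The log2 ratio of Mb was -0.08, with an interval of -0.10 to -0.05. Its direction depended on the scale, being -0.24 on deposited TPM and 0.02 when counts were scaled to the ERCC spike-in totals. Slow and oxidative fibre markers, the genes of the fibres richest in myoglobin, stood at a median of 189 ± 16.6 TPM. None of the 11 differed between the libraries by 0.32 or more on the log2 scale, the size of difference counted throughout, 9 lay below 0, and their median log2 ratio was -0.07. The highest were Myh2, the IIa myosin heavy chain, at 568 and 530 TPM, and the myosin light chains Myl2 (364 and 311 TPM) and Myl3 (293 and 242 TPM). Fast fibre markers stood at a median of 9239 ± 151 TPM, with 1 of 10 below 0 and a median log2 ratio of 0.10. Tnnt3, the fast troponin T (17223 and 16907 TPM), Myh4, the IIb heavy chain (13070 and 12781 TPM), and the light chain Mylpf (12204 and 11609 TPM) led. Over all 14370 genes averaging 10 counts or more, the median was 0.00. Whether fibre make-up had a part in the Mb difference was not tested.

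Blood haemoglobin mRNA was present at a fraction of the level of Mb. The 4 adult genes summed to 368 and 298 TPM (333 ± 49.3 TPM), and Mb exceeded that sum 4.39 ± 0.14 fold. Hbb-bs (ENSMUSG00000052305.6, chr7:103826534-103828096, reverse strand), the main adult beta chain, had 140 TPM in replicate 1 and 110 TPM in replicate 2. Hba-a1 (ENSMUSG00000069919.7, chr11:32283511-32284465, forward strand), an alpha chain, had 135 and 99.8 TPM. The ranges of Hbb-bs and Hba-a1 overlapped, so their order was within the spread. Hba-a2 (ENSMUSG00000069917.7, chr11:32296489-32297298, forward strand), the second alpha copy, had 79.8 and 75.6 TPM, below both values of Hba-a1 in the gene table. Hbb-bt (ENSMUSG00000073940.3, chr7:103812524-103813996, reverse strand), the minor beta copy, had 13.5 and 12.7 TPM. Each had close neighbours in mean TPM among nuclear protein-coding genes: Itm2b and Vcp beside Hbb-bs, Pnrc1 and Mrpl30 beside Hba-a1, S100a1 and Psmb5 beside Hba-a2, and Ctsz and Nudt13 beside Hbb-bt.

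**Figure D1:**
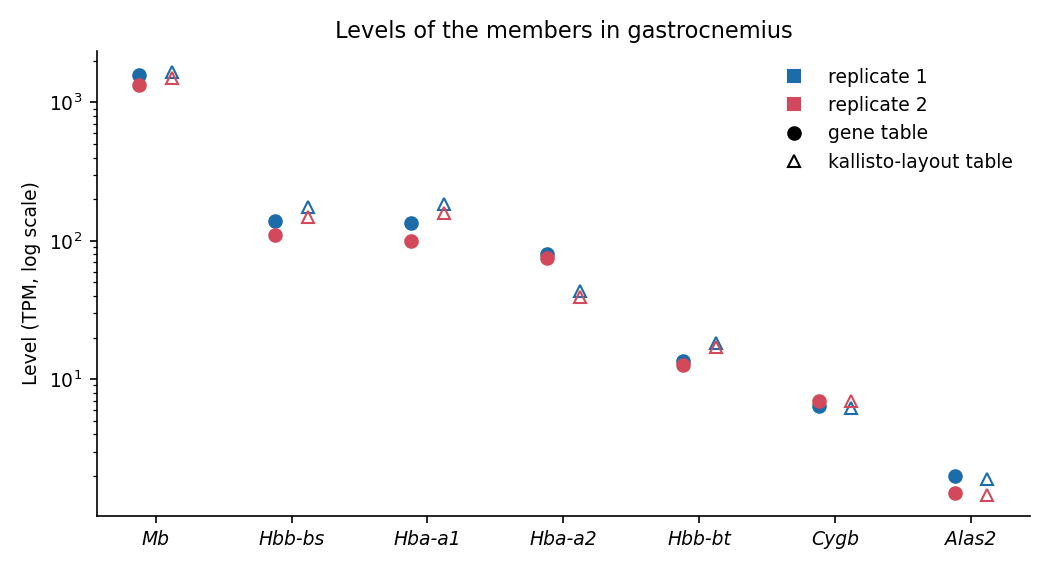
Level of each member averaging 10 counts or more, in TPM on a log axis, for both libraries (colours) in the gene table (filled circles) and the kallisto-layout table (open triangles). Mb, at 1579 and 1340 TPM in the gene table, stands above the 4 haemoglobin genes, and Cygb and Alas2 lie under 10 TPM.

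Cygb (ENSMUSG00000020810.5, chr11:116645595-116654313, reverse strand), the globin of fibroblast-like cells, had 366 and 423 counts, or 6.42 and 6.98 TPM (6.70 ± 0.40 TPM), between Zfp521 and Ubtd1 in mean TPM. Mb exceeded it 246-fold in replicate 1 and 192-fold in replicate 2. Its log2 ratio was 0.26 (interval 0.06 to 0.47), and it was the only one of the 4 members whose interval left out 0 to lie above 0. On deposited TPM the ratio was 0.12. Of the 7 fibroblast markers, which summed to 521 and 502 TPM, 6 lay above 0 with a median of 0.08, and Col1a1 (0.33) and Col1a2 (0.36), chains of type I collagen, were higher in replicate 2 by 0.32 or more. The part of fibroblast content in the Cygb value was not tested.

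Ngb (ENSMUSG00000021032.13, chr12:87097531-87102539, reverse strand), the neuronal globin, was listed at 0 counts in both libraries and in every deposited table. A count of 0 allows up to 3 counts, or 0.0853 and 0.0847 CPM (scaled to gene counts). The 6 neuron and axon markers, from Rbfox3 to Tubb3, summed to 0.28 and 0.42 TPM.

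The other mouse globin genes were not detectable or had very few counts at this depth. Of the 8 found in the annotation, 7 had 0 counts in both libraries: the embryonic genes Hbb-y, Hbb-bh1 and Hba-x, and Hbb-bh0, Hbb-bh2, Hbq1a and Hbq1b. Adgb, the testis globin androglobin, had 2 and 3 counts.

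Alas2 and Slc4a1, whose products make haem and carry anions in red cells, were far lower than Mb and the adult haemoglobin genes. Alas2 (ENSMUSG00000025270.13, chrX:150547375-150570638, forward strand) encodes the erythroid form of the first and rate-limiting enzyme of haem synthesis. It had 88 and 65 counts, or 2.0 and 1.5 TPM (1.75 ± 0.35 TPM, between Rrnad1 and Dclre1b), and the adult haemoglobin sum exceeded it 191 ± 10.5 fold. Alas1, the form used outside the red cell line, had 88.9 and 80.0 TPM, 48.9 ± 6.24 fold above Alas2. Slc4a1 (ENSMUSG00000006574.15, chr11:102348824-102366203, reverse strand), the band 3 anion exchanger of the red cell membrane, had 2 counts in replicate 1 and 0 in replicate 2, all at or under the 3-count limit, so no fold is given.

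Among the 9 members, 7 averaged 10 counts or more and entered the comparison of libraries. Alas2 alone was lower in replicate 2 by 0.32 or more, and 0 of 7 were higher by as much. Of all 14370 genes, 11.3% were that much lower and 9.94% that much higher, or 21.2% in either direction, so the count of members was near the background. The median log2 ratio of the 7 was -0.08. Alas2 stood at -0.38 with an interval of -0.87 to 0.09, which holds 0. The intervals of Mb, Cygb, Hba-a1 and Hbb-bs left out 0. These intervals cover counting error only, so a well-counted gene can leave out 0 at a small ratio. Atp2a1, a fast fibre marker, did so at 0.02 (interval 0.015 to 0.023). The share of all genes whose interval left out 0 was not computed, so no difference is read from these intervals alone. Hba-a1 stood at -0.29 (interval -0.39 to -0.20), Hbb-bs at -0.21 (-0.31 to -0.11), Hba-a2 at 0.06 (-0.07 to 0.19) and Hbb-bt at 0.04 (-0.25 to 0.32).

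Summing each pair removed the division of reads between copies. The alpha pair had 2970 and 2540 counts in replicates 1 and 2, which gave a log2 ratio of -0.17 (interval -0.25 to -0.10). The beta pair had 2099 and 1782 counts, a log2 ratio of -0.18 (-0.28 to -0.09). Over the 4 genes together, with 5069 and 4322 counts, the ratio was -0.18 (-0.24 to -0.12). The size of this difference moved with the scale, from -0.30 on deposited TPM and -0.24 with library totals to -0.09 with spike-in totals, and its direction did not. The intervals of the alpha and beta sums overlapped almost wholly. For the single copies the tables differed: in the kallisto-layout table Hba-a1 stood at -0.16 (interval -0.24 to -0.08), Hba-a2 at -0.09 (-0.29 to 0.10) and Hbb-bt at -0.02, so that Hba-a2 and Hbb-bt changed sign between the tables. A difference between the copies of a pair was not tested. In bulk tissue, fewer red cells and less globin mRNA per cell cannot be told apart.

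**Figure D2:**
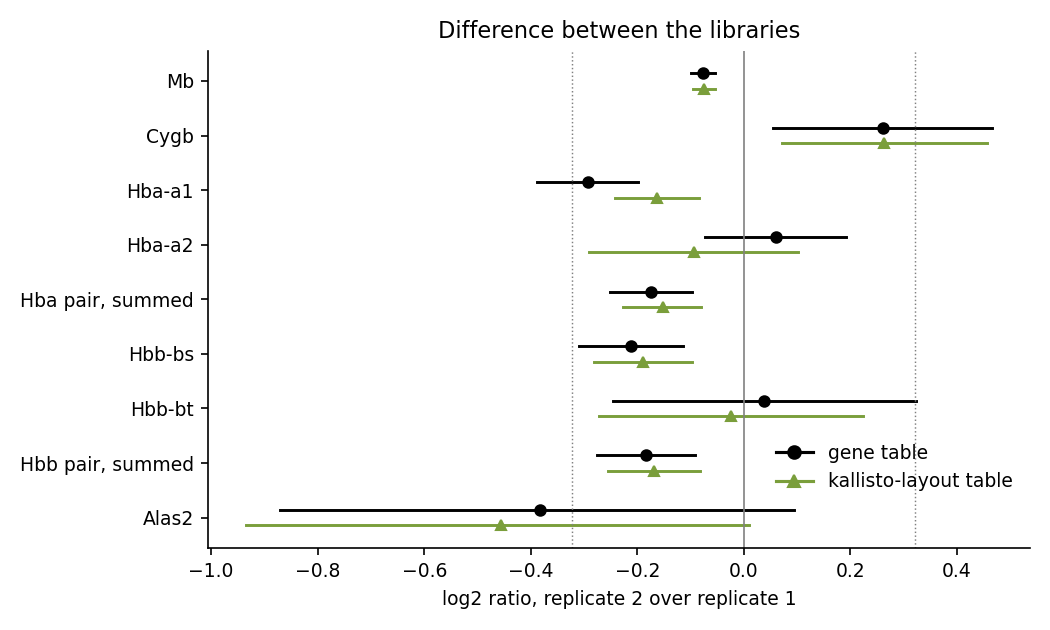
Log2 ratio of replicate 2 over replicate 1 for each member and each summed pair, with exact binomial 95% intervals, from the gene table (black circles) and the kallisto-layout table (green triangles); dotted lines mark 0.32 on either side of 0. The summed alpha and beta pairs lie at -0.17 and -0.18, and Alas2 has the widest interval.

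Some vessel markers were also lower in replicate 2, and markers of platelets and neutrophils were low in both libraries. The 10 endothelial markers summed to 82.3 TPM in replicate 1 and 61.6 TPM in replicate 2, and 8 of 10 lay below 0, with a median log2 ratio of -0.27. Of the 10, 4 were lower by 0.32 or more, against 11.3% of all genes averaging 10 counts or more. Among the 9741 genes averaging 100 counts or more, as these 4 did, 4.35% were that much lower. Kdr, the main VEGF receptor of endothelium, stood at -0.79, Emcn at -0.60 and the junction cadherin Cdh5 at -0.42, whereas Vwf, the von Willebrand factor, stood at 0.11 and the junction protein Cldn5 at 0.18. The 7 markers of smooth muscle and pericytes summed to 153 and 120 TPM, with a median of -0.22, 5 of 7 below 0 and 2 lower by 0.32 or more, Kcnj8 (-0.63) and Rgs5 (-0.33). Myh11 (0.09) and Tagln (0.07), both of smooth muscle, lay above 0. Platelet markers were low: Pf4 had 5.43 and 5.10 TPM, Itga2b had 0.90 and 0.84 TPM, and Gp1bb and Treml1 were at 0 in the gene table and at 2 counts or fewer in the kallisto-layout table. The 8 blood neutrophil markers summed to 0.49 and 0.02 TPM, and S100a9, Ngp, Camp, Ly6g and Cxcr2 were at 0 in both libraries of the gene table. In the kallisto-layout table Cxcr2 had 17 counts in each library and S100a9 had 1 and 0. The 8 leukocyte markers summed to 32.0 and 28.2 TPM, led by Lyz2 at 16.4 and 14.3 TPM. The part of vessel or blood content in the haemoglobin difference was not tested.

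How reads were divided within a pair was visible in the posterior SD that the gene table gives with each count. It was 44.81 counts for both Hba-a1 and Hba-a2 in replicate 1 and 44.97 in replicate 2, against 2043 and 1608 counts for Hba-a1 and 927 and 932 for Hba-a2. For Hbb-bs and Hbb-bt it was 15.4 and 14.1 counts, which came to 7.39% and 6.82% of Hbb-bt but under 1% of Hbb-bs. Hbb-bt was the only one of the 7 members with a posterior SD above 5% of its count, a mark met by 6.44% of all genes compared. Mb and Cygb had a posterior SD of 0.

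The kallisto-layout table divided the alpha reads differently. Hba-a1 made up 62.8% and 56.9% of the TPM of the alpha pair in the gene table (59.8 ± 4.15%), and 81.1% and 80.2% in the kallisto-layout table (80.6 ± 0.61%). Hba-a2 was the only member at least 1.5-fold apart between the tables in both libraries, against 7.74% of 11885 genes, and stood at 43.3 and 39.1 TPM in the kallisto-layout table. The posterior SD of the alpha genes, at most 4.84% of a count, was smaller than this gap between the tables. The beta pair was divided alike in both: Hbb-bs made up 90.4 ± 1.05% in the gene table and 90.1 ± 0.57% in the kallisto-layout table. The ratio of alpha to beta TPM was 1.41 ± 0.02 in the gene table and 1.19 ± 0.0021 in the kallisto-layout table, so its excess of alpha over beta depends on the table. Hba-a1 stood there at 185 and 159 TPM and Hbb-bs at 174 and 150 TPM, ranges that again overlapped. The levels of single alpha copies are uncertain to this extent.

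**Figure D3:**
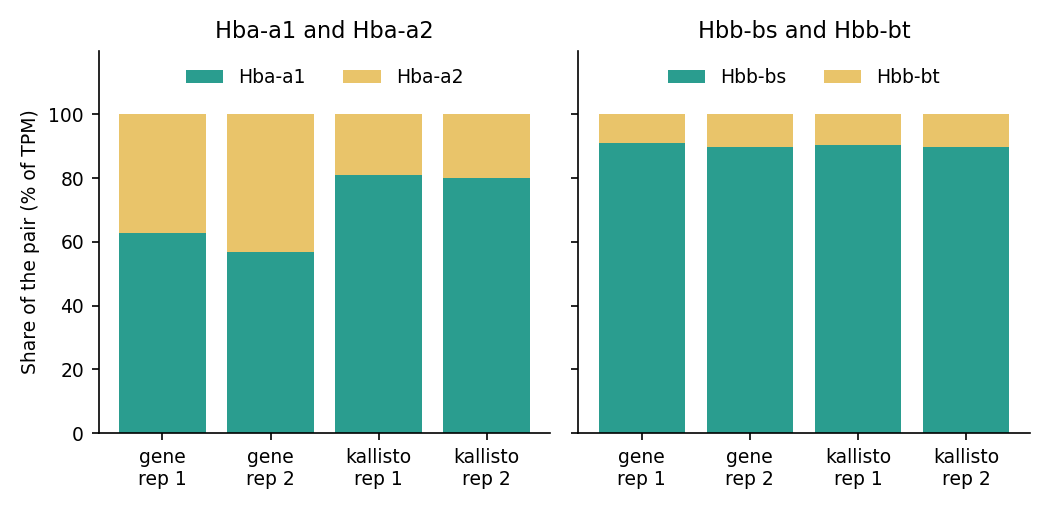
Share of each adult globin pair's TPM taken by each copy, in percent, for both libraries in the gene table and the kallisto-layout table. Hba-a1 takes 62.8% and 56.9% in the gene table and 81.1% and 80.2% in the kallisto-layout table, whereas Hbb-bs stays between 89.7% and 91.2%.

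The annotated 5′ ends of the copies differ as well. The main transcript of Hba-a1 has 196 bases before its coding part and that of Hba-a2 has 35, and Hbb-bt has 127 where Hbb-bs has 53. RefSeq start sites (GRCm38.p6) give another view, since a TATA-like ATATAA lies just before each of them. The 30 bases from 45 to 16 before each RefSeq start are printed with ATATAA in capitals, to show how alike the alpha copies are there and how the beta copies differ.
Hba-a1 (chr11:32283627-32283656, forward strand): acacgcccttggagggcATATAAgtgctac
Hba-a2 (chr11:32296447-32296476, forward strand): cgcccttggagggcATATAAgtgctacttg
Hbb-bs (chr7:103827944-103827973, reverse strand): gagccagggcagagcATATAAggtgaggta
Hbb-bt (chr7:103813939-103813968, reverse strand): ggagccagcattgggtATATAAagctgagc
The first exon that the gene tables use for Hba-a1 and for Hbb-bt covers its stretch. Over the 250 bases before the RefSeq start, the alpha copies were 97.6% identical in a global alignment with 0 mismatches and 6 gap columns, and the beta copies were 70.9% identical. Motifs were searched on both strands in the 300 bases from 250 before to 50 after the start. They were ATATAA, a form of the TATA box, CCAAT, known from NF-Y sites, CACCC, known from sites of KLF factors, and AGATAA, known from sites of GATA factors. All 4 adult globin windows held ATATAA, which was found in 9.82% of all 32851 promoter windows. They also held CCAAT, which was found in 37.4% of all windows, and the letters CACCC, which were found in 57.5%. AGATAA, present in 11.2% of all windows, was found in those of Hbb-bs and Alas2. A match is a description of these letters only, and 6 of the 9 members had a promoter entry.

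Mb reads were spread over several annotated transcripts with different first exons. All 6 are annotated as coding, and those of 462 coding bases (Mb-201, Mb-202, Mb-203 and Mb-205) hold the longest frame. Mb-202 starts 27883 bases upstream of Mb-203 and Mb-205 starts near it, and these are called distal here. Mb-201 starts 60 bases downstream of Mb-203, and both are called proximal. Mb-206 starts 824 bases downstream of Mb-203 and has 297 coding bases. The 120 bases before the start of Mb-203 (RefSeq, GRCm38.p6, chr15:77022788-77022907, reverse strand) are printed with CACCC in capitals, since no annotated exon lies on them.
Mb proximal start: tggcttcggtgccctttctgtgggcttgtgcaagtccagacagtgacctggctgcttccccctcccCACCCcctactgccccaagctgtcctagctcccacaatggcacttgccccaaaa
None of the Mb promoter windows held ATATAA.

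In the RSEM transcript table Mb-202 took 32.3% and 37.6% of Mb TPM, Mb-203 took 32.5% and 30.7%, and Mb-206 took 28.7% and 26.6%. Mb-201 took 6.45% and 5.12%, and Mb-204 and Mb-205 were listed at 0. By start, distal transcripts made up 35.0 ± 3.72%, proximal ones 37.4 ± 2.17% and Mb-206 27.6 ± 1.55%. Distal and proximal shares overlapped between the libraries. In the kallisto-layout table Mb-205 took 17.0 ± 0.47% and Mb-201 was at 0, which gave 49.1 ± 0.40% distal, 28.7 ± 0.41% proximal and 22.2 ± 0.01% for Mb-206. Each of Mb-202, Mb-203 and Mb-206 thus held over 20% of Mb in both tables and both libraries, while the order of distal and proximal starts depended on the table. The posterior SD of Mb-202 was 427 and 416 counts, of 12503 and 13111. Posterior SDs did not cover the gap between the tables. Mb-205 had 0 counts with posterior SDs of 9.29 and 9.95 in the RSEM table, and 4514 and 3899 counts in the kallisto-layout table.

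Genes on the opposite strand overlap both ends of Mb. Apol6 (27.3 and 20.9 TPM) shares 64 exon bases with the distal first exon, and the antisense gene Gm49540 (1.16 and 1.30 TPM) shares 412 bases at the 3′ end. The library kit marks strand per the labels' protocols, and the strand setting used in counting was not stated in the labels used, so reads in these stretches are uncertain.

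**Figure D4:**
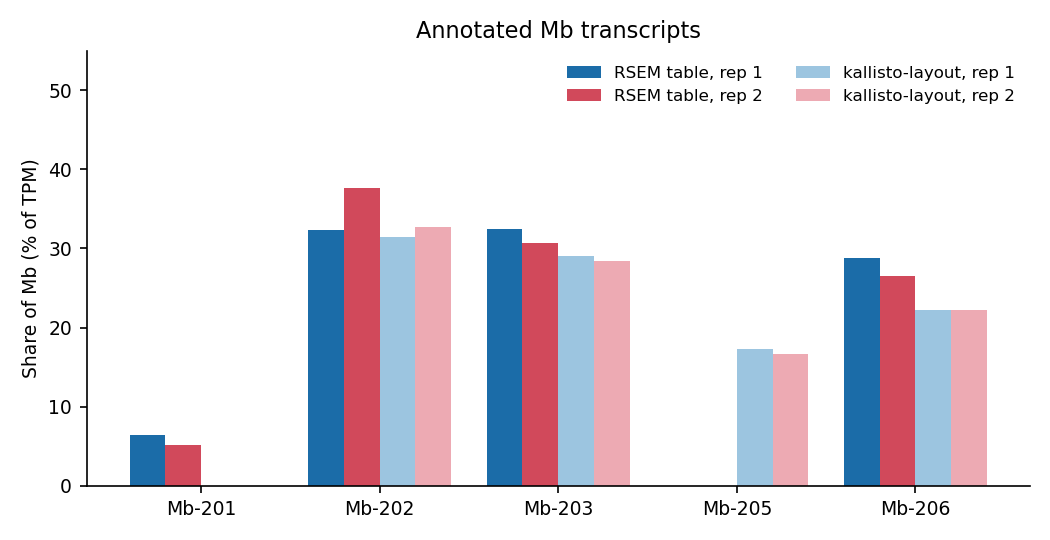
Share of Mb TPM, in percent, of each annotated Mb transcript above 0 in any table, for both libraries in the RSEM transcript table (dark bars) and the kallisto-layout table (light bars). Mb-202, Mb-203 and Mb-206 are present in both tables, Mb-201 in the RSEM table and Mb-205 in the kallisto-layout table.

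Transcripts of the other members were simpler or too thin to divide. Cygb and Hbb-bt have a single annotated transcript. A transcript of Hba-a1 with a retained intron had 32.8 and 31.8 counts with posterior SDs of 28.3 and 22.0 in the RSEM table. Hbb-bs-203 was listed at 0 in the RSEM table and took 11.4% and 14.8% of Hbb-bs in the kallisto-layout table. The second coding transcript of Alas2 had 41.0 counts in replicate 1 and 0 in replicate 2 with posterior SDs of 17.8 and 8.84, so the split of Alas2 transcripts could not be resolved at this depth.

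Most genes that supply haem and iron reached 1 TPM in both libraries. All 8 listed enzymes of haem synthesis (Alas1 included, Alas2 not) reached 1 TPM in each library and had a median of 11.5 ± 1.29 TPM. Of these, 0 of 8 differed by 0.32 or more (median log2 ratio 0.02). The highest after Alas1 were Fech, which inserts iron into the ring, at 69.3 and 67.9 TPM, and Urod at 28.0 and 25.4 TPM. Of the 14 iron genes 13 reached 1 TPM and 0 of the 13 compared differed by 0.32 or more, with a median of 0.03. Over all 14370 genes 21.2% differed by as much in either direction. Of the 9741 genes averaging 100 counts or more, as all those compared here did, 4.35% were that much lower. Fth1, the ferritin heavy chain, stood at 1025 and 1004 TPM, the iron-sulphur scaffold Iscu at 79.5 and 69.0 TPM, and Ftl1, the ferritin light chain, at 57.3 and 53.8 TPM. Tfrc, the transferrin receptor through which red cell precursors and other cells take up iron, stood at 36.5 and 35.1 TPM, and Tfr2, a receptor best known from liver, had 0 counts.

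Of 13 genes of haem binding, transport and breakdown, 3 were lower in replicate 2 by 0.32 or more and 2 were higher, around a median of -0.07. Over all genes 21.2% differed by as much in either direction. The lower genes, named here after their values were seen, were Hebp1 (-0.76, from 104 and 59 counts), the inducible haem oxygenase Hmox1 (-0.47) and Flvcr2, which had 14 and 9 counts. The higher genes, also named after their values were seen, were the haem exporter Flvcr1 (0.42) and Abcb6 (0.43). The most abundant were Slc48a1, a haem transporter, at 23.5 and 22.9 TPM, the constitutive haem oxygenase Hmox2 at 18.8 and 16.4 TPM, and Pgrmc2 at 9.68 and 8.07 TPM, which overlapped Abcb6 at 8.35 and 9.20 TPM. Genes listed as reductases of oxidised globins or as haem partner proteins were all above 1 TPM. They had a median of 18.0 ± 0.62 TPM, with 0 of 7 differing by 0.32 or more. Cyb5r1 stood at 38.2 and 38.9 TPM, catalase (Cat) at 38.2 and 38.6 TPM, and Cyb5r3 at 25.2 and 20.2 TPM.

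Of 16 genes of the red cell membrane and skeleton, 7 reached 1 TPM in both libraries and 5 had 0 counts in the gene table. Among those at 0 in the gene table were Epb42, which binds band 3, and the blood group genes Rhag, Rhd and Kel. In the kallisto-layout table Rhd and Kel were at 0 too, Epb42 had 12 and 4 counts, and Rhag had 4 and 0. The high genes were Ank1 (276 and 242 TPM), an ankyrin with muscle forms, Aqp1 (115 and 85.1 TPM), a water channel that endothelium also makes, and Tmod1 (82.1 and 78.3 TPM), which caps thin filaments in muscle. Aqp1 had a log2 ratio of -0.30 (interval -0.35 to -0.25), and 0 of the 8 compared differed by 0.32 or more. Of the 11 erythroid enzymes and stabilising factors found, 7 reached 1 TPM. Prdx2 (81.4 and 70.8 TPM), Bnip3l (73.3 and 57.8 TPM) and Bpgm (46.1 and 50.2 TPM) led, Car1 had 4 and 6 counts, and Hemgn and Trim10 had none in the gene table.

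Erythroid transcription factors were near the lower limit. Gata1 had 1 count in each library, Klf1 had 2 and 0, Gfi1b 0 and 1, and Epor, the erythropoietin receptor, 3 and 4. Lmo2 (4.06 and 2.35 TPM) and Zfpm1 (2.69 and 2.75 TPM) reached 1 TPM, and Tal1 had 0.34 and 0.30 TPM. Lmo2 and Tal1 are also made by endothelium. Of the 3 compared, 1 was lower in replicate 2 by 0.32 or more, namely Lmo2 at -0.49, and the median was -0.27. Over all genes averaging 10 counts or more, 11.3% were that much lower.

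Genes listed as acting on Mb transcription or on oxidative fibres were all expressed. The 12 genes had a median of 20.7 ± 4.04 TPM, and 1 was lower in replicate 2 by 0.32 or more (median log2 ratio -0.02). Over all genes averaging 10 counts or more, 11.3% were that much lower and 9.94% that much higher. Mef2c, a muscle transcription factor, had 208 and 219 TPM, the calcineurin subunit Ppp3cb 98.7 and 90.0 TPM, and Mef2d 82.8 and 78.3 TPM. The lower gene, named after its value was seen, was the calcineurin target Rcan1, at -0.35. Of 14 genes of oxygen sensing, 13 reached 1 TPM, 0 were lower by 0.32 or more and 1 was higher, with a median of -0.06. Pfkfb3, a regulator of glycolysis, had 191 and 137 TPM (log2 ratio -0.24), Bnip3 106 and 85.4 TPM, and the prolyl hydroxylase Egln1 82.5 and 74.7 TPM. The higher gene, again named after its value was seen, was Ddit4 at 0.41.

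**Figure D5:**
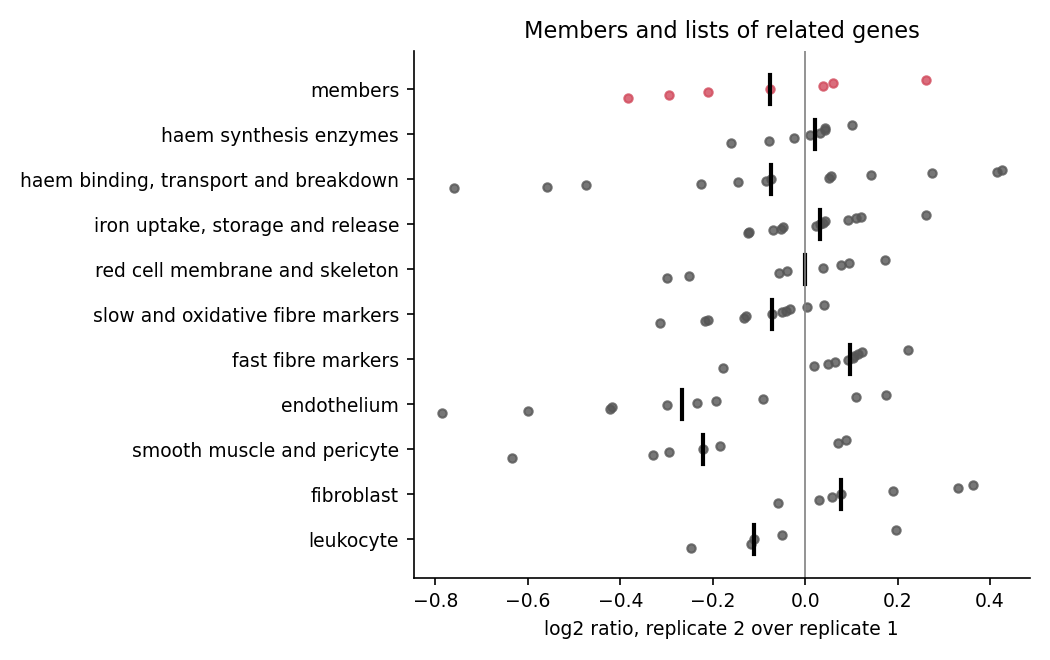
Log2 ratio of replicate 2 over replicate 1 for the 7 members averaging 10 counts or more (red) and for genes of related lists (grey), with the median of each as a black bar. The members' median is -0.08, the haem synthesis enzymes' 0.02 and the endothelial markers' -0.27.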

How the data were processed

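Per the labels' protocols, RNA from a column kit, 300 ng a library, entered a directional kit with ribosomal RNA reduced and ERCC RNA added. The authors deposited expected counts, TPM and posterior SDs per gene and per transcript (RSEM layout), and estimated counts and TPM per transcript in the layout kallisto writes, summed here per gene, on mm10 with GENCODE M21. Neither aligner nor program versions are named in the labels used. Expected counts were rounded. Ratios used edgeR 4.0.16 (TMM, genes averaging 10 counts or more, prior of 0.5 counts), and TPM ratios a pseudocount of 0.1. With 1 group of 2 libraries no test was made. Named genes are the members, their neighbours in TPM, the 3 highest of each pathway or fibre list and genes of those lists averaging 100 counts or more whose log2 ratio reached 0.5 in size, and others, cell markers included, were named after their values were seen. Members and lists were chosen with earlier results of these data known. Some genes of the lists are not reported here. Ahsp, Hbb-b1 and Hbb-b2 are not symbols of this annotation. Alternatives used DESeq2 1.42.0 size factors, library and spike-in totals, TPM, other minimums, another prior and the kallisto-layout table. R 4.3.3, pandas 2.3.3, scipy 1.17.1 and Biopython were used. Only the step of log2 ratios and intervals was tested on simulated data, drawn with counting error alone and known scaling.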

Additional observations from a re-analysis of the deposited data

How the results depend on the processing

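Of the values recomputed for the principal results, 31 stayed within a set limit and 13 did not. The limit was the spread between the libraries, or 1.5 times for a count. For the log2 ratio of the haemoglobin sum, itself a difference between the libraries, the limit was its counting interval. The 31 include levels, ratios and shares from 1 library alone. Those always lie within the SD of 2 libraries, so they do not bear on stability. The log2 ratio of the haemoglobin sum stayed below 0 with every alternative. In the kallisto-layout table the adult haemoglobin sum was 393 TPM, the ratio of alpha to beta 1.19 and the Hba-a1 share 80.6%. Without mitochondrial and signal recognition particle RNA genes, Mb stood at 2639 TPM and the haemoglobin sum at 602 TPM. The log2 ratio of the haemoglobin sum was -0.24 with library totals, -0.086 with spike-in totals and -0.30 on deposited TPM. Members differing by 0.32 or more numbered 2 with library totals (Hba-a1 and Alas2), 3 on TPM (Hbb-bs as well), 2 with no minimum count (Alas2 and Slc4a1) and 0 at a minimum of 100. With spike-in totals the 1 such member was Cygb, higher, in place of Alas2, lower, so the count stayed at 1 while gene and direction changed. The scalings moved the median of all genes by -0.06 (library totals), 0.09 (spike-in totals) and -0.13 (TPM). Each library alone gave 1340 to 1579 TPM for Mb, 298 to 368 TPM for the haemoglobin sum, 1.396 to 1.429 for alpha over beta, 56.9 to 62.8% for Hba-a1, 89.7 to 91.2% for Hbb-bs, and 1 to 2 members at least 1.5-fold apart between tables (2 without replicate 1). No paired analysis was possible because the series has 1 group. Depth limits Alas2, Slc4a1 and Ngb.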
